A study of Mus musculus with 2 samples.

Results

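The genes described are 10 members of the glycolytic pathway, Pfkfb3, Hk1, Gpi1, Aldoa, Tpi1, Gapdh, Pgk1, Eno1, Pkm and Ldha, chosen by symbol from the 32285 genes counted. They filled 11 rows of the gene table, because Aldoa is listed under 2 identifiers; the second, ENSMUSG00000114515, held 0 UMIs (unique molecular identifiers, 1 per captured transcript) in both libraries. The counts came from single-cell RNA sequencing of kidney cells; all mice were C57BL6/J males, 10 to 12 weeks old. The cisplatin mice were given 20 mg/kg of this platinum chemotherapy drug, which injures the kidney tubule, and were examined 72 h later; the other mice were given saline. For each treatment 10 kidneys, read here as those of 5 mice, were pooled, digested and passed over magnetic beads for CD31 and then podoplanin, and 1 droplet library was made. There is therefore no replicate: no test was run, and every interval below covers counting error only.

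Glycolysis splits glucose to pyruvate in the cytosol and yields ATP without oxygen, and lactate dehydrogenase turns pyruvate into lactate and renews the NAD+ the pathway needs. Endothelial cells are known to draw much of their ATP from glycolysis, with PFKFB3 as an activator in sprouting vessels. The proximal tubule, by contrast, is known to burn fatty acids and to make glucose, and the later nephron segments use glycolysis more.

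The cisplatin library held 19994105 UMIs and the saline library 5879496. Barcodes of at least 500 UMIs with at most 20% mitochondrial UMIs numbered 1729 with cisplatin and 627 with saline, with medians of 746 UMIs (cisplatin) and 896 UMIs (saline). Their median mitochondrial share was 10.0% with cisplatin and 1.74% with saline. The 20% limit removed 1712 of the 3441 cisplatin barcodes of at least 500 UMIs, and 3 of the 630 saline ones. No kept barcode occurred in both libraries. The samples are labelled lymphatic endothelial cells, but the 6 lymphatic markers summed to 61 UMIs in kept cisplatin barcodes and 18 UMIs in kept saline barcodes, and UMIs of 2 or more of them were held by 1 cisplatin barcode and 0 saline barcodes. The genes are therefore described in barcodes gated on other markers. An endothelial barcode had at least 3 of 12 general endothelial markers, more of these than of proximal tubule markers, and at most 1 marker of podocytes, leukocytes, pericytes or collecting duct. It was called capillary, glomerular, arterial or large-vessel by the most abundant subtype markers, where 1 subtype led with at least 2 UMIs. The large-vessel class (2 cisplatin and 19 saline barcodes) is not described below. Nor are endothelial barcodes without a leading subtype (26 cisplatin and 62 saline). No gate took 744 cisplatin and 94 saline kept barcodes, which held 6541 (cisplatin) and 324 (saline) UMIs of the general endothelial markers. A proximal tubule barcode had at least 3 of 12 tubule markers, and a collecting duct barcode at least 2 of 10. Droplets of 1 to 100 UMIs, called near-empty below, were summed as a record of free RNA, which broken cells release and every droplet takes up. They held 10.7% of all UMIs of the cisplatin library and 63.0% of those of the saline library. The window thus covers unlike parts of the 2 libraries, and whether it records free RNA alike in both was not tested.

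Capillary barcodes numbered 59 with cisplatin and 166 with saline, and proximal tubule barcodes 855 with cisplatin and 105 with saline. Glomerular barcodes numbered 23 with cisplatin and 26 with saline, arterial barcodes 14 with cisplatin and 154 with saline, and collecting duct barcodes 6 with cisplatin and 1 with saline. Near-empty droplets numbered 376309 with cisplatin and 197491 with saline, and 18769 near-empty barcodes occurred in both libraries. The capillary, proximal tubule and near-empty classes were the 3 with at least 50 members in each library.

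Several of these genes are textbook targets of hypoxia-inducible factors. ACGTG is 1 form of their binding core, and other forms were not searched. RefSeq promoter windows (GRCm38.p6), from 250 bases before to 50 bases after each annotated start, were searched for ACGTG and for its reverse complement CACGT, that is on both strands, with the palindrome CACGTG counted once on each. The first listed start held a match for 4 of the 10 genes (40%), Pfkfb3, Gapdh, Pgk1 and Ldha. Of the 18 listed starts of the 10 genes 9 held one, a share of 50%. The windows of listed starts 2 and 3 of Aldoa overlap and share 1 match, which is counted for both. A match was held by 19.6% of all 32851 promoters. The windows shown are those with a match at the first listed start; Hk1, Aldoa and Pkm held one only at a later listed start. Matches are in capitals. The last 50 bases of each window lie in the transcribed part of the gene. A match describes letters in the window and does not show that a factor binds there.
Pfkfb3 (chr2:11553880-11554179, minus strand): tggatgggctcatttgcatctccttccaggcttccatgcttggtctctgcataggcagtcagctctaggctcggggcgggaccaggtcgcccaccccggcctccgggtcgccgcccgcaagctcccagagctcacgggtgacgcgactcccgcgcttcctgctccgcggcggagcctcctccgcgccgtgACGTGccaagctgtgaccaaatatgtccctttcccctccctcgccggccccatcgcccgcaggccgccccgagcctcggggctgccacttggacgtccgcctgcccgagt
Gapdh (chr6:125165724-125166023, minus strand): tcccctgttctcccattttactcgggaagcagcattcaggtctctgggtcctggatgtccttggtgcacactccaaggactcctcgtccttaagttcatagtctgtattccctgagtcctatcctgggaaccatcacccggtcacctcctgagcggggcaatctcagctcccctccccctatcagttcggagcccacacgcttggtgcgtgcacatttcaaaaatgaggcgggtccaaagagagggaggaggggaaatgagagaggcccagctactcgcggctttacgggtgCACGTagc
Pgk1 (chrX:106186850-106187149, plus strand): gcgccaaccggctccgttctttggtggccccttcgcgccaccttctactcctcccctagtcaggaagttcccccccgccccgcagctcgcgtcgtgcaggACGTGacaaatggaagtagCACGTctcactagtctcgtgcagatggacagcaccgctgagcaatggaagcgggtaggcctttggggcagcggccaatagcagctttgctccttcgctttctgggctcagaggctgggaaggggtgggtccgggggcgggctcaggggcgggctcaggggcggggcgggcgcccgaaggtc
Ldha (chr7:46845554-46845853, plus strand): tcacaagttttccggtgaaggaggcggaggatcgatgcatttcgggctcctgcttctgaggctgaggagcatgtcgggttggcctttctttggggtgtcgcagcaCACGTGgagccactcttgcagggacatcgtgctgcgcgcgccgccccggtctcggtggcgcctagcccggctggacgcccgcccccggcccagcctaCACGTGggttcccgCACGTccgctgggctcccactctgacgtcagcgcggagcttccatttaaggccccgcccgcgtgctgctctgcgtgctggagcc
Ldha held 5 matches, 4 of which came from palindromes counted on both strands. Pgk1 held 2 matches on opposite strands, at 150 and 131 bases before its start. The single match of Gapdh lay 42 bases after its start, and that of Pfkfb3 lay 60 bases before it.

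In capillary barcodes the 10 genes together made up 2144 CPM (counts of UMIs scaled to a common total of 1000000; 95% Poisson interval 1951 to 2351; 453 UMIs) with cisplatin and 1101 CPM (950.4 to 1269; 191 UMIs) with saline. The summed level was 1.95-fold higher with cisplatin (95% interval 1.64 to 2.32). Of the 10 genes, 9 were at least 1.5-fold higher with cisplatin, the fold taken as a change, and none was at least 1.5-fold lower. Among all 3458 genes with at least 20 UMIs over both libraries in these barcodes, 21.1% were at least 1.5-fold higher and 24% at least 1.5-fold lower. The median ratio was 2.33 over the 10 genes and 0.958 over all genes. The enzymes up to triose phosphate isomerase, with Pfkfb3, summed to 918.3 CPM with cisplatin and 478.4 CPM with saline, a ratio of 1.92 (1.48 to 2.51). The enzymes from Gapdh on, with Ldha, summed to 1226 CPM with cisplatin and 622.5 CPM with saline, a ratio of 1.97 (1.57 to 2.49).

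Pfkfb3 makes fructose 2,6-bisphosphate, the activator of phosphofructokinase. The gene (ENSMUSG00000026773, chromosome 2) had 19 UMIs (89.9 CPM) in cisplatin capillary barcodes and 5 UMIs (28.8 CPM) in saline ones, 3.12-fold higher (1.13 to 10.7). Hk1 (ENSMUSG00000037012, chromosome 10), the hexokinase that traps glucose in the cell, had 20 UMIs (94.7 CPM) with cisplatin and 7 UMIs (40.4 CPM) with saline, a ratio of 2.35 whose interval of 0.953 to 6.57 includes 1. Gpi1 (ENSMUSG00000036427, chromosome 7), glucose-6-phosphate isomerase, had 40 UMIs (189.3 CPM) with cisplatin and 14 UMIs (80.7 CPM) with saline, 2.35-fold higher (1.25 to 4.67). The 3 genes of this entry stretch were all above 2-fold, on few UMIs.

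Aldoa (ENSMUSG00000030695, chromosome 7), the aldolase that splits fructose 1,6-bisphosphate, had 97 UMIs (459.1 CPM) with cisplatin and 52 UMIs (299.7 CPM) with saline. Its ratio of 1.53 (1.08 to 2.19) depended on which barcodes carried the weight: it was 0.943 when each barcode counted equally and 0.703 when each was thinned to 500 UMIs. In barcodes of under 1000 UMIs Aldoa had no UMI with cisplatin. Its higher level was therefore carried by the deep cisplatin barcodes. Tpi1 (ENSMUSG00000023456, chromosome 6), triose phosphate isomerase, had 18 UMIs (85.2 CPM) with cisplatin and 5 UMIs (28.8 CPM) with saline, 2.96-fold higher (1.06 to 10.2).

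Gapdh (ENSMUSG00000057666, chromosome 6), which makes the first NADH of the pathway, had 121 UMIs (572.8 CPM) with cisplatin and 43 UMIs (247.9 CPM) with saline, 2.31-fold higher (1.62 to 3.35). Gapdh was the member with the most UMIs in these barcodes. Pgk1 (ENSMUSG00000062070, chromosome X), phosphoglycerate kinase, had 20 UMIs (94.7 CPM) with cisplatin and none among 173481 saline UMIs. Set against a floor of 3 UMIs (17.3 CPM), the Pgk1 ratio was 5.47, and its exact 95% interval starts at 4.05. With barcodes of at least 1000 UMIs the ratio against the floor was 2.80, with an interval from 2.06. With barcodes of at least 300 UMIs the Pgk1 ratio was 17.9 (2.88 to 740). Eno1 (ENSMUSG00000063524, chromosome 4), the enolase that makes phosphoenolpyruvate, had 24 UMIs (113.6 CPM) with cisplatin and 13 UMIs (74.9 CPM) with saline, a ratio of 1.52 (0.742 to 3.24). Pkm (ENSMUSG00000032294, chromosome 9), pyruvate kinase, had 38 UMIs (179.9 CPM) with cisplatin and 18 UMIs (103.8 CPM) with saline, a ratio of 1.73 (0.965 to 3.23). The intervals of both Eno1 and Pkm include 1. Ldha (ENSMUSG00000063229, chromosome 7), which makes lactate, had 56 UMIs (265.1 CPM) with cisplatin and 34 UMIs (196.0 CPM) with saline; its ratio of 1.35 (0.868 to 2.14) was the only one of the 10 below 1.5. The Ldha ratio was 5.04 (1.60 to 15.2) in barcodes of under 1000 UMIs, 1.78 with barcodes weighted equally and 0.916 (0.555 to 1.55) in barcodes of at least 1000 UMIs, so its direction depended on depth. Eno1 has a near-identical copy, Eno1b, between which and Eno1 reads may be split; Eno1b had 1 UMI with cisplatin and 0 with saline in capillary barcodes.

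**Figure D1:**
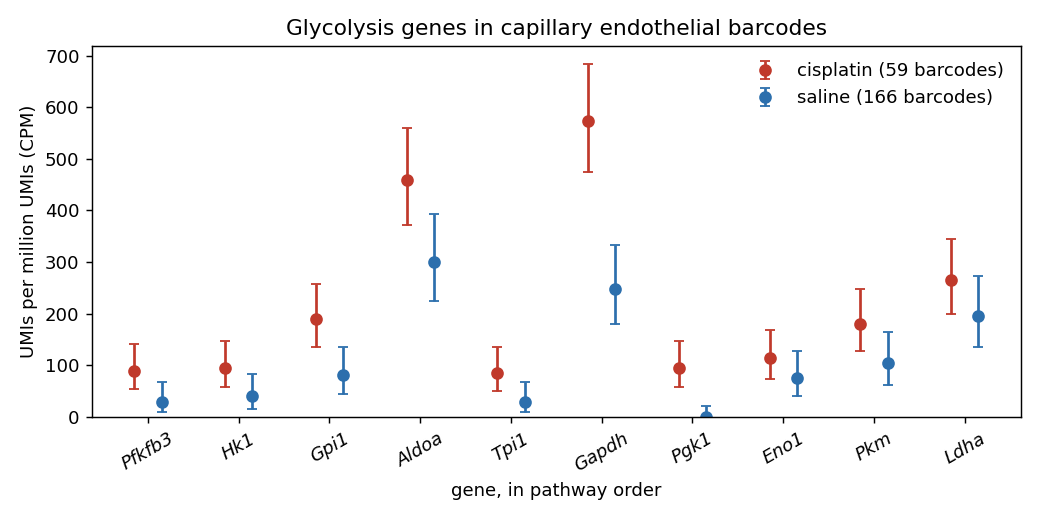
Level of each glycolysis gene in capillary endothelial barcodes, in CPM of the class, with cisplatin in red (59 barcodes) and saline in blue (166 barcodes). Points are 1 library each and bars are 95% Poisson intervals, which cover counting error only; the cisplatin point lies above the saline point for every gene, and Pgk1 had no saline UMI.

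Depth differed between the capillary barcodes, with medians of 1891 UMIs for cisplatin and 870 for saline, so the summed level was also taken within ranges of depth. In barcodes of under 1000 UMIs it was 2173 CPM in 18 cisplatin barcodes and 980.9 CPM in 107 saline barcodes, a ratio of 2.21 (1.38 to 3.47). In barcodes from 1000 to under 2000 UMIs it was 2000 CPM in 12 cisplatin barcodes and 1176 CPM in 53 saline barcodes, a ratio of 1.70 (1.11 to 2.56). In barcodes of 2000 UMIs or more it was 2156 CPM in 29 cisplatin barcodes and 1296 CPM in 6 saline barcodes, a ratio of 1.66 (1.14 to 2.52). This top range is not matched in depth, with medians of 5097 UMIs for cisplatin and 3898.5 for saline. The summed level was higher with cisplatin in all 3 depth ranges, but in the top range Eno1 (0.861), Pkm (0.954) and Ldha (0.738) had ratios below 1, all with intervals that include 1.

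Other features of the capillary barcodes also differed. Mitochondrial transcripts made up 4.00% of their UMIs with cisplatin and 1.25% with saline, and the nuclear RNA Malat1 3.0% with cisplatin and 8.34% with saline. With both left out of the total the summed glycolysis level was 1.89-fold higher, and 7 of the 10 genes were past 1.5-fold higher, with Aldoa at 1.49 and Eno1 at 1.47; of all genes 19.4% were higher and 26.5% lower on that scale. The 12 general endothelial markers summed to 10882 CPM with cisplatin and 12134 CPM with saline, with none at 0. The 12 proximal tubule markers summed to 610.6 CPM with cisplatin and 737.8 CPM with saline; read against near-empty droplets, these put free RNA at 6.20% of the UMIs with cisplatin and 5.58% with saline. With free RNA subtracted the ratio was 2.01. The 6 loop and distal tubule markers summed to 762.1 CPM with cisplatin and 138.3 CPM with saline, and 1 cisplatin barcode held 143 of these 161 cisplatin UMIs together with 53 glycolysis UMIs. Another cisplatin barcode held 99 UMIs of Krt15, a keratin of stratified epithelium, and 61 glycolysis UMIs. Without these 2 barcodes the summed ratio was 1.86 (1.55 to 2.23), and 5 of the 8 genes that still had 20 UMIs were past 1.5-fold, with Aldoa at 1.45 and Eno1 at 1.29.

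**Figure D2:**
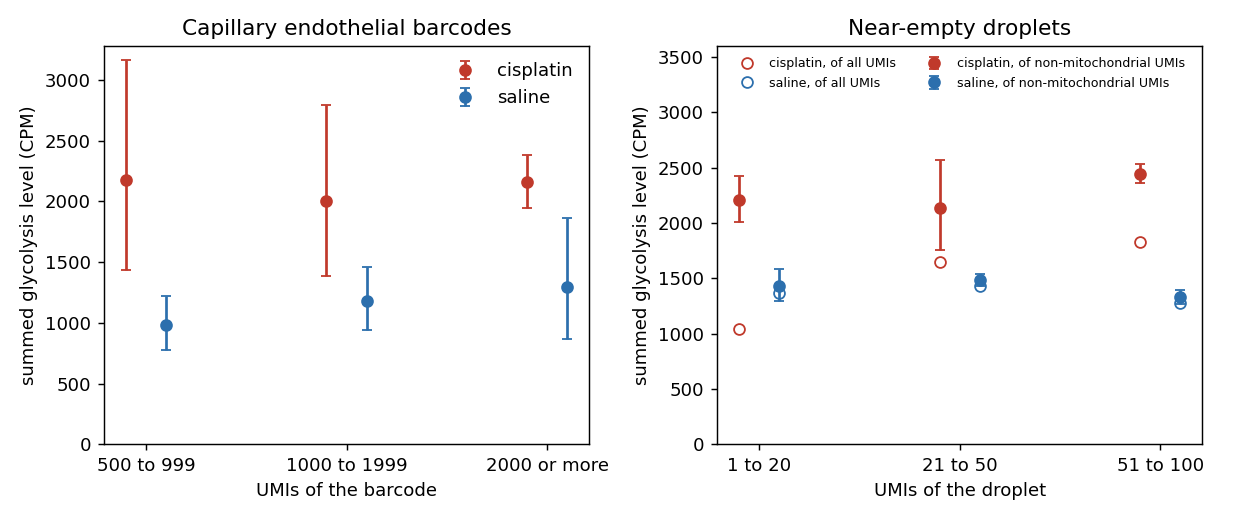
Summed level of the 10 glycolysis genes by depth, in CPM, with cisplatin in red and saline in blue; bars are 95% Poisson intervals. On the left, capillary barcodes by UMIs per barcode, where cisplatin lies above saline in each range; on the right, near-empty droplets by UMIs per droplet, with open points relative to all UMIs and filled points relative to non-mitochondrial UMIs, where only the open points cross over at 1 to 20 UMIs.

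Near-empty droplets gave the most counts, 3570 glycolysis UMIs with cisplatin and 5071 with saline. The summed level was 1668 CPM (1613 to 1723) with cisplatin and 1369 CPM (1332 to 1407) with saline, a ratio of 1.22 (1.17 to 1.27). Of the 10 genes, 4 were at least 1.5-fold higher, where 17.9% of 12375 genes were, and 1 was at least 1.5-fold lower, where 24.9% were. The members did not move together here. Gapdh had 392.9 CPM (841 UMIs) with cisplatin and 162.8 CPM (603 UMIs) with saline, 2.41-fold higher (2.17 to 2.68). Pfkfb3 was 1.97-fold higher (1.33 to 2.93), Pgk1 1.73-fold (1.41 to 2.12) and Eno1 1.51-fold (1.17 to 1.95). Ldha went the other way: 185.5 CPM (397 UMIs) with cisplatin and 321.6 CPM (1191 UMIs) with saline, a ratio of 0.577 (0.514 to 0.647). Aldoa (1.36), Tpi1 (1.26), Pkm (1.07), Gpi1 (1.03) and Hk1 (0.768) lay between these.

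The mitochondrial share of the near-empty droplets was 30.6% with cisplatin and 3.84% with saline, which lowers every other gene's CPM with cisplatin. Leaving mitochondrial UMIs out of the total moved the median log2 ratio of all genes by 0.47. On that scale the summed glycolysis level was 2403 CPM with cisplatin and 1424 CPM with saline, a ratio of 1.69, and 6 of the 10 genes were past 1.5-fold higher and none lower, where 40% of all genes were higher and 10.2% lower on that scale. Gapdh was then 3.34-fold higher (3.01 to 3.72), while Ldha had a ratio of 0.799 (0.711 to 0.896), the only member below 1 on that scale. In droplets of 1 to 20 UMIs, where mitochondrial transcripts made up 53.1% of cisplatin UMIs and 4.29% of saline UMIs, the summed level per all UMIs was lower with cisplatin, 1037 CPM against 1371 CPM with saline. Per non-mitochondrial UMI it was 2212 CPM with cisplatin and 1433 CPM with saline in the same droplets. The direction of the summed level in free RNA therefore flipped with the scaling in the emptiest droplets.

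Counts of 2 genes set against each other within a library need no scaling. Near-empty droplets held 0.472 Ldha UMIs per Gapdh UMI with cisplatin and 1.98 with saline. Proximal tubule barcodes showed the same order, but most of their UMIs were estimated as free RNA (below), so they add no separate observation. They held 0.50 Ldha UMIs per Gapdh UMI with cisplatin and 1.86 with saline. In capillary barcodes the values were 0.463 with cisplatin and 0.791 with saline, and in arterial barcodes 0.578 with cisplatin and 0.800 with saline. Ldhb, which makes the other lactate dehydrogenase subunit, gave a like picture: near-empty droplets held 0.538 Ldha UMIs per Ldhb UMI with cisplatin and 1.47 with saline, and capillary barcodes 1.27 with cisplatin and 2.43 with saline. Collecting duct barcodes had 0.621 Ldha UMIs per Gapdh UMI with cisplatin and 1.56 with saline. Glomerular barcodes were the exception, at 0.667 with cisplatin and 0.111 with saline, the saline value resting on 1 Ldha UMI. No interval was computed for these pairs, and those outside near-empty droplets rest on few UMIs. The capillary order also depended on depth. In capillary barcodes of under 1000 UMIs it turned round, with cisplatin to saline ratios of 5.04 for Ldha and 2.16 for Gapdh. With at least 1000 UMIs per barcode it held, with 0.916 for Ldha and 2.15 for Gapdh.

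**Figure D3:**
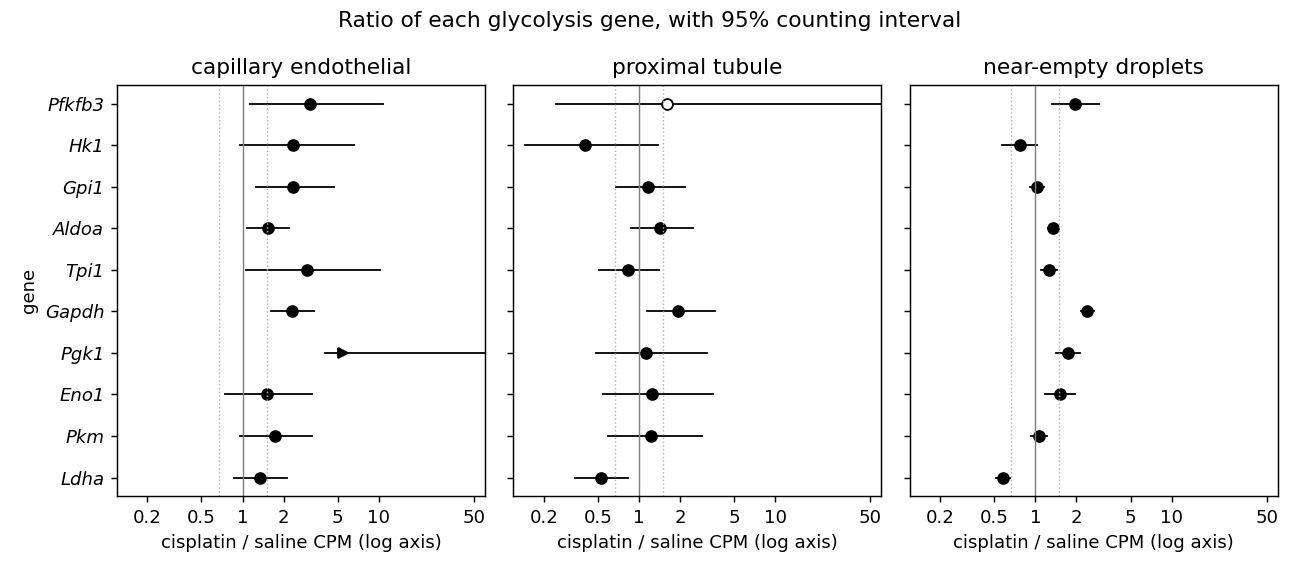
Ratio of cisplatin to saline CPM for each glycolysis gene on a log axis, in capillary barcodes, proximal tubule barcodes and near-empty droplets. Bars are exact 95% intervals for counting error, cut at the plot's edge. The open point has under 20 UMIs in all, and dotted lines mark 1.5-fold. The arrowhead is the Pgk1 ratio against a floor of 3 UMIs. Capillary ratios lie to the right of 1 for all 10 genes, while Ldha lies to the left of 1 in the other panels.

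In proximal tubule barcodes the summed level was 1665 CPM (1571 to 1763; 1173 UMIs) with cisplatin and 1545 CPM (1277 to 1853; 116 UMIs) with saline, a ratio of 1.08 whose interval of 0.890 to 1.32 includes 1. It was 0.892 (0.723 to 1.11) in barcodes of under 1000 UMIs and 0.958 (0.780 to 1.19) with Gapdh left out, so no direction can be given. Of 9 genes with at least 20 UMIs, 1 was at least 1.5-fold higher, against 26.3% of 6490 genes, and 2 at least 1.5-fold lower, against 20% of them. Gapdh had 363.4 CPM (256 UMIs) with cisplatin and 186.4 CPM (14 UMIs) with saline, 1.95-fold higher (1.14 to 3.62). Ldha had 181.7 CPM (128 UMIs) with cisplatin and 346.3 CPM (26 UMIs) with saline, a ratio of 0.525 (0.342 to 0.834). Hk1 had 19 UMIs with cisplatin and 5 with saline, a ratio of 0.405 whose interval of 0.146 to 1.39 includes 1. The other 6 measured genes had ratios of 0.825 (Tpi1) to 1.44 (Aldoa), and Pfkfb3 had 15 UMIs with cisplatin and 1 with saline.

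Gapdh was higher and Ldha lower in near-empty droplets as well. Read from the loop and distal tubule markers, free RNA made up an estimated 90.5% of proximal tubule UMIs with cisplatin and 103.7% with saline. Both shares count all UMIs in the totals. Mitochondrial UMIs made up 30.6% of cisplatin near-empty droplets, more than of the gated barcodes, so the cisplatin share would be lower without them. The shares were not estimated again on that scale. Malat1 made up 9.33% of proximal tubule UMIs with cisplatin, against 2.22% in cisplatin near-empty droplets. With saline it made up 14.0%, against 10.5% in saline near-empty droplets. The mitochondrial share of proximal tubule barcodes, held down by the limit of 20% per barcode, was 10.5% with cisplatin and 2.76% with saline. The proximal tubule markers used for the gate summed to 11696 CPM in cisplatin proximal tubule barcodes, against 9853 CPM in cisplatin near-empty droplets. The same markers summed to 14156.5 CPM in saline proximal tubule barcodes, against 13231 CPM in saline near-empty droplets. In both libraries the marker level of the gated barcodes thus lay close to that of free RNA. How many of these barcodes are tubule cells was not tested. The 15 cisplatin barcodes of 2000 UMIs or more held 241 of the 1173 glycolysis UMIs at 4152 CPM (3644 to 4710). Of these UMIs 51, 48 and 46 came from 3 barcodes, and the third of these also held 60 loop and distal tubule UMIs; no saline proximal tubule barcode reached that depth.

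Relative to free RNA of the same library, the summed level of capillary barcodes lay higher with cisplatin (2144 CPM against 1668 CPM in near-empty droplets) and lower with saline (1101 CPM against 1369 CPM), when all UMIs were counted in the total. With mitochondrial UMIs left out of every total, capillary barcodes lay lower in both libraries, at 2234 CPM against 2403 CPM in near-empty droplets with cisplatin and 1115 CPM against 1424 CPM with saline. The order within the cisplatin library thus turned with the scaling.

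In arterial barcodes the summed level was 2007 CPM (1723 to 2324; 178 UMIs) with cisplatin and 1206 CPM (1120 to 1296; 732 UMIs) with saline, a ratio of 1.66 (1.41 to 1.96). Of 9 genes measured, 5 were at least 1.5-fold higher, where 16.5% of 5234 genes were, and none was at least 1.5-fold lower, where 31.6% were. These were Aldoa (1.63), Tpi1 (2.28), Gapdh (1.87), Eno1 (2.77) and Pkm (1.93). Of the 178 cisplatin UMIs 75 came from 1 of the 14 barcodes. Without it, and without the leading saline barcode, the summed ratio was 1.27 (1.02 to 1.56), with 2 genes higher and 2 lower. It was 1.22 (0.976 to 1.51) when 1 more marker was required, where Gapdh stood at 0.989, and 1.18 (0.938 to 1.48) at a limit of 10% mitochondrial UMIs. The size of the arterial difference therefore rests on few barcodes.

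In glomerular barcodes the summed level was 1516 CPM (1277 to 1786; 142 UMIs) with cisplatin and 1319 CPM (923.6 to 1826; 36 UMIs) with saline, a ratio of 1.15 (0.793 to 1.71). The 4 genes with 20 UMIs, Gpi1, Aldoa, Gapdh and Pkm, had ratios of 0.777 to 0.874, so 0 of 4 passed the fold in either direction, where 23.4% of 1004 genes were higher and 21.5% lower. Collecting duct barcodes had 4260 CPM (3569 to 5045; 134 UMIs in 6 barcodes) with cisplatin and 2623 CPM (1882 to 3559; 41 UMIs in 1 barcode) with saline. The ratio of 1.62 (1.14 to 2.36) rests on 1 saline barcode and on 2 of the 6 cisplatin barcodes, which held 66 and 63 of the 134 UMIs; the first of these also held 107 loop and distal tubule UMIs. Of 3 collecting duct genes with 20 UMIs, Aldoa (5.30) and Gapdh (1.60) were higher and Ldha (0.639) lower, where 18.4% of 331 genes were higher and 47.4% lower. Whether the ratio differs between classes was not tested, as each rests on the same 2 libraries.

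**Figure D4:**
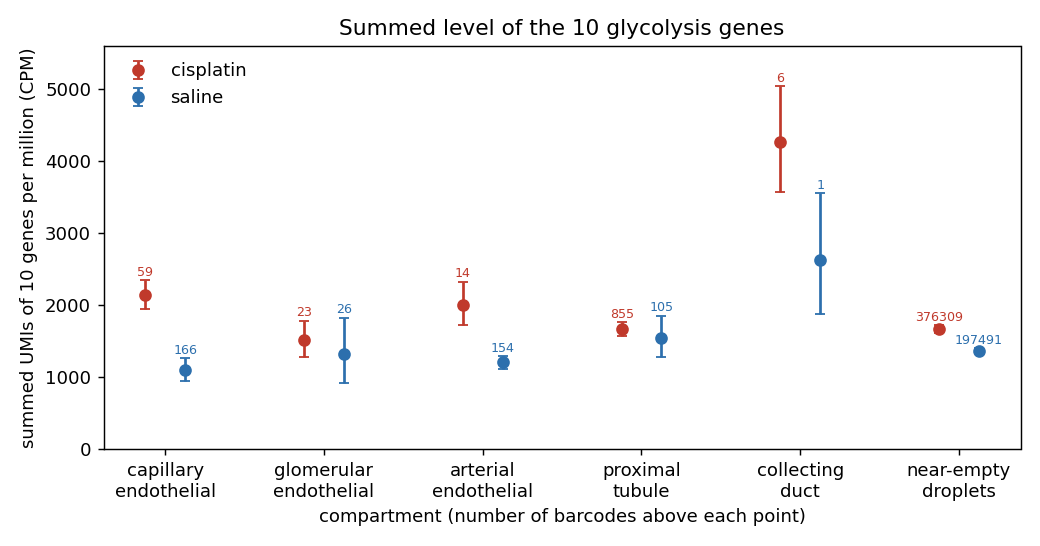
Summed level of the 10 glycolysis genes per class of barcode, in CPM, with cisplatin in red and saline in blue. Bars are 95% Poisson intervals and the number above each point is its number of barcodes; the capillary, arterial, collecting duct and near-empty points of cisplatin lie above those of saline with intervals that do not overlap, and the glomerular and proximal tubule intervals overlap.

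The neighbouring genes of the pathway were read from lists of other isozymes, transporters, pyruvate enzymes and regulators. Of 20 other glycolytic isozymes only Ldhb reached 20 UMIs in capillary barcodes, with 208.3 CPM (44 UMIs) for cisplatin and 80.7 CPM (14 UMIs) for saline, 2.58-fold higher (1.39 to 5.10). Hk2, the inducible hexokinase, had no UMI in the capillary barcodes of either library. Of 10 transport genes only Bsg, the chaperone of the lactate carriers, was measured, at 421.3 CPM (89 UMIs) with cisplatin and 172.9 CPM (30 UMIs) with saline, 2.44-fold higher (1.59 to 3.82). Slc2a1, the main endothelial glucose carrier, had 3 UMIs with cisplatin and 1 with saline, too few for a comparison.

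Of 12 genes of pyruvate handling 3 were measured in capillary barcodes and 2 were higher, where 21.1% of all genes were; these are both subunits of the carrier that takes pyruvate into mitochondria. Mpc1 had 25 UMIs with cisplatin and 5 with saline, 4.11-fold higher (1.54 to 13.7), and Mpc2 had 36 with cisplatin and 17 with saline, a ratio of 1.74 (0.952 to 3.30). Of 12 regulators and hypoxia targets 5 were measured, 1 higher and 1 lower, where 21.1% of all genes were higher and 24% lower. Ddit4, a stress-induced inhibitor of mTOR, had 37 UMIs with cisplatin and 12 with saline, 2.53-fold higher (1.29 to 5.33). Hif1a, a hypoxia-inducible factor subunit controlled mainly at the protein level, had 20 UMIs with cisplatin and 31 with saline, a ratio of 0.530 (0.286 to 0.960). In arterial barcodes the Hif1a ratio was 2.03 (1.08 to 3.60; 16 UMIs with cisplatin and 54 with saline), and in collecting duct barcodes 2.61 (0.880 to 10.5). Tigar, a p53 target that lowers fructose 2,6-bisphosphate, had 1 UMI in the capillary barcodes of each library. In near-empty droplets it had 16 UMIs with cisplatin and 20 with saline.

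In proximal tubule barcodes none of the 7 measured isozymes passed the fold, and 1 of 3 transport genes, 3 of 10 pyruvate genes and 4 of 7 regulators were higher, where 26.3% of all genes were. Pck1, the entry enzyme of glucose synthesis, was 2.63-fold higher (1.41 to 5.56; 247 UMIs with cisplatin and 10 with saline), and G6pc, which releases free glucose, had a ratio of 0.586 (0.329 to 1.12; 77 UMIs with cisplatin and 14 with saline). Mpc1 was 7.99-fold higher on 75 UMIs with cisplatin and 1 with saline. Slc2a2, Fbp1, Hif1a, Bnip3, Ddit4 and Txnip were also past 1.5-fold higher and Ppargc1a, a regulator of mitochondrial synthesis, past 1.5-fold lower at 0.572, all on intervals that include 1. The free RNA share given above applies to these values too.

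Over the 12 profiles of class and library, the genes whose log2 level followed the summed glycolysis level most closely were Atp5b (Pearson's r = 0.93), Uqcrfs1 (0.92), Uqcrq (0.91), Atp5d (0.90) and Ndufa12 (0.88), among 6385 genes with at least 200 UMIs. All 5 encode subunits of the mitochondrial respiratory chain or ATP synthase. The profiles share 2 libraries, and the deep collecting duct profiles stand apart, so these values are a description.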

How the data were processed

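The authors deposited raw UMI counts per gene and barcode, unfiltered and not normalized, for 1 cisplatin and 1 saline library. The submitters' processing notes name Cell Ranger 6.0.1 and build mm10, and the matrices carry a Cell Ranger 4 mark, per the file headers. The authors' own list of cells was not used here. Gates, sums, exact Poisson intervals and exact conditional (Clopper-Pearson) intervals of ratios at 95% were computed with Python 3.11.15, numpy 2.4.6, scipy 1.17.1 and pandas 2.3.3. The ratios and their intervals were tried on simulated capillary counts drawn independently for each gene. That simulation left out the clumping of UMIs in single barcodes, so it does not show how the intervals hold for these data. Counts were summed per class and library and divided by the UMIs of that class (CPM); no doublet caller was run, and some gated barcodes hold markers of a second cell type. A gene was measured with 20 UMIs over both libraries and called past 1.5-fold. All 10 members are named; genes of the other lists are named where past 1.5-fold in capillary or proximal tubule barcodes, with Tigar, Hk2, Slc2a1 and Hif1a always, and the 5 genes of highest correlation on log2(CPM + 1). Krt15 was named after its values were seen. The members and lists were chosen with earlier results of these data known.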

Additional observations from a re-analysis of the deposited data

How the results depend on the processing

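With 1 library per treatment, replicate error is unknown, and few barcodes limit the glomerular, arterial and collecting duct values. No paired analysis was possible because the groups hold 1 library each. The 1712 cisplatin barcodes removed by the mitochondrial limit held 2167 glycolysis UMIs. These made up 1347 CPM of all UMIs and 2745 CPM of non-mitochondrial UMIs. The summed capillary ratio lay between 1.66 and 2.21 under all 19 alternatives run; the number of members past 1.5-fold there was 9 of 10, but 6 at a fold of 2, 5 of 8 measured at 1000 UMIs per barcode or without the mixed barcodes, and 1 of 3 after thinning to 500 UMIs; restricting to under 1000 or to 1000 to under 2000 UMIs left 2 measured and 1 higher, and from 2000 UMIs 7 measured and 4 higher. Single capillary genes had ratios above 1 under these alternatives, with these exceptions. Aldoa was at 0.703 thinned, 0.943 with barcodes weighted equally, and 0.748 against the floor in barcodes of under 1000 UMIs. Ldha was at 0.916 at 1000 UMIs per barcode, 0.244 from 1000 to under 2000 UMIs and 0.738 from 2000 UMIs. At 2000 UMIs or more Eno1 was at 0.861 and Pkm at 0.954. Tpi1 and Pgk1 had no saline UMI there, so their ratio of 0.615 against the floor gives no direction. The proximal tubule ratio reversed to 0.958 with 1 more marker, 0.821 thinned, 0.931 with equal weights, 0.892 below 1000 UMIs and 0.958 without Gapdh, and moved to 1.52 at 1000 UMIs; its members past 1.5-fold higher and lower were 1 and 2, against 3 and 0 at 300 UMIs per barcode and 4 and 0 at 1000; subtracting free RNA gave no value there because the estimated share in saline exceeded the whole. The glomerular ratio reversed to 0.969 thinned. The arterial ratio moved to 1.18 at 10% mitochondrial UMIs, 1.22 with 1 more marker (Gapdh reversed to 0.989), 1.27 without the leading barcodes and 2.27 without barcodes holding podocyte UMIs; its 5 members past 1.5-fold higher became 2 at 10% mitochondrial UMIs, without the leading barcodes or at a fold of 2, 1 with 1 more marker or thinned, and 3 with equal weights. The collecting duct ratio reversed to 0.667 thinned and 0.997 with equal weights (Gapdh 0.921) and moved to 2.40 without Gapdh and Ldha. The near-empty ratio reversed to 0.790 at 1 to 50 UMIs (Pfkfb3 0.936, Pgk1 0.862) and 0.757 at 1 to 20 UMIs (Pfkfb3 0.480, Pgk1 0.817), and moved to 1.69 without mitochondrial UMIs, 1.55 also without Malat1 and 1.06 without Gapdh; its genes past 1.5-fold higher and lower were 4 and 1, against 1 and 3 at 1 to 20 UMIs and 6 and 0 without mitochondrial UMIs. The alternatives that restrict depth, leave out mixed or leading barcodes, or leave out Gapdh and Ldha were chosen after seeing the data. The cause of these changes was not tested.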
